A study of Mus musculus with 16 samples.

Results

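DNA replication and S phase genes were followed in natural killer (NK) cells: 33 genes that encode the machinery for licensing origins, unwinding and copying DNA, supplying nucleotides and rebuilding chromatin behind the fork. Members were found by exact gene symbol in the deposited table, which holds 49671 genes, and all 33 were present and had enough counts to be tested. RNA had been sequenced from sorted NK cells (live, CD45+, CD3-, NKp46+, DX5+) in 16 libraries, 4 from each of 4 groups. The groups were LN DT and LN PBS, from the axillary tumour-draining lymph node (LN), and lung DT and lung PBS, from the lungs. LN DT and lung DT came from mice given 25 µg of diphtheria toxin (DT) at T=0 and T=7 (the unit of time is not stated in the labels), and LN PBS and lung PBS from mice given phosphate-buffered saline (PBS) at the same times. Every mouse, PBS controls included, was FVB/N with the genotype Cdh1F/F;Trp53F/F;Foxp3GFP-DTR and carried an orthotopically transplanted KEP mammary tumour of 100 mm2. Foxp3GFP-DTR places a DT receptor in cells that express Foxp3, which are mainly regulatory T cells, so DT is meant to remove those cells and not NK cells. Lung tissue was digested with enzyme and cleared of red cells, which the labels do not state for LN, so the tissues also differ in handling. The age of the mice is not given in the labels used here.

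As background, a dividing cell copies its genome once per cycle. In G1, CDC6 and CDT1 load the hexameric MCM2-7 helicase onto origins, and geminin (Gmnn) later blocks reloading. In S phase CDC45 and GINS activate the helicase, DNA polymerase alpha with primase starts each strand, and polymerases delta and epsilon extend it on the PCNA sliding clamp, which the RFC complex loads. Ribonucleotide reductase, thymidylate synthase and thymidine kinase supply deoxynucleotides, and many of these genes are transcribed under E2F factors at the G1 to S transition. NK cells rest for much of their life in tissues and divide upon stimulation by cytokines such as interleukin 2 and interleukin 15.

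The promoters of members that moved and of members that did not are shown first, because E2F is the transcription factor family best known for this gene set. A RefSeq promoter window (GRCm38.p6), reaching from 250 bases before to 50 bases after the gene's start, was found for 28 of the 33 members; Mcm4, Pole, Gins1, Gmnn and Gins2 are named only. The E2F-like words TTTNNCGC and TTTNNCGG, sought on both strands with overlapping matches allowed, were present in the window of 15 of 28 members (53.6%), against 3215 of 27025 genes (11.9%) with a window. Where a gene has several windows, a match in any of them was counted. In the 250 upstream bases alone the words were present in 10 of 28 members (35.7%) and in 9.88% of genes. Below, the 160 bases that end just before the start are given 5′ to 3′ on the gene's strand, for 4 members that were higher with DT in the test over both tissues (Dtl, Pola1, Clspn and Rfc3) and for 2 helicase subunits that did not pass (Mcm5 and Mcm6). Capitals mark the E2F-like words.
Dtl: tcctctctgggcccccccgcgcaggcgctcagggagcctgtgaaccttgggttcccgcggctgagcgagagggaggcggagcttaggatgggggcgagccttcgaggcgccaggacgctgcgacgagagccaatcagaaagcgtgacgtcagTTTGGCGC
Pola1: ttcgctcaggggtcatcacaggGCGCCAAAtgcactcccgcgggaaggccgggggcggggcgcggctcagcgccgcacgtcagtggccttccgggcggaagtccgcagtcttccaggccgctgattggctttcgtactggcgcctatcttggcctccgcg
Clspn: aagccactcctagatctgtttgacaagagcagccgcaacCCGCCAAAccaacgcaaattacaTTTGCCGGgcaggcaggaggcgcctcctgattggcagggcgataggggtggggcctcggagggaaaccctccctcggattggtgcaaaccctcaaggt
Rfc3: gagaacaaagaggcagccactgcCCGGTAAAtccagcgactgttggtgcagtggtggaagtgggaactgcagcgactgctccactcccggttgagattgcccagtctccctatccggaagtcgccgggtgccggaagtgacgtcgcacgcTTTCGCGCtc
Mcm5: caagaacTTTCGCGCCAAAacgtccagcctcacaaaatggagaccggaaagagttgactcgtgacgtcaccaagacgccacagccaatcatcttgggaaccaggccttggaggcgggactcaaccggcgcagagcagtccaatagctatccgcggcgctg
Mcm6: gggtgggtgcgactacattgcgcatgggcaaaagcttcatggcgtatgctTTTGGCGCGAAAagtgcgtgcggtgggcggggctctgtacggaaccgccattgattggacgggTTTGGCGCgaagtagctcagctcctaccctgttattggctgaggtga

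These stretches lie at chr1:191575545-191575704, minus strand (Dtl), chrX:93632156-93632315, minus strand (Pola1), chr4:126556820-126556979, plus strand (Clspn), chr5:151651209-151651368, minus strand (Rfc3), chr8:75109349-75109508, plus strand (Mcm5) and chr1:128359706-128359865, minus strand (Mcm6). Mcm5 carries overlapping matches on opposite strands (TTTCGCGCCAAA), and Mcm6 a like pair (TTTGGCGCGAAA) plus a single word nearer the start. Among all windows searched, the words were also found for Cdc6, Cdt1, Chaf1a, Lig1, Mcm3, Mcm7, Pold1, Tyms and Uhrf1. None was found for Prim1, Rrm2 or Tk1, which were higher with DT, nor for Cdc45, Chaf1b, Dut, Fen1, Mcm10, Mcm2, Pcna, Rfc4, Rrm1 and Slbp. The word CCAAT was found in 18 of 28 members (64.3%) and 41.1% of genes, and TTTGAA, the core of an element of mitotic genes, in 3 of 28 (10.7%) and 20.2%. Of the members with a window, an E2F-like word was found in 5 of the 8 that were called higher with DT and in 10 of the 20 that were not. A match is a string of letters, not a shown binding site.

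Libraries held 3929560 to 10744934 counts, the fewest in lung PBS replicate 2 and the most in lung PBS replicate 1. Ncr1, which encodes NKp46, ran from 2457 to 7917 CPM (counts scaled by library size) over all 16 libraries, and no library held over 9 counts of Foxp3. Both DT libraries numbered 1 were far above the rest on the second principal component (LN 108, lung 152, all others from -78.7 to 19.6). Lung DT replicates 2 and 3 were the lowest on it (-78.7 and -70.2), so the lung DT group itself was widely spread. Both DT libraries numbered 1 also had the most Malat1 (18216 and 17164 CPM, all others at most 8511). Mitochondrial genes took 4.93, 4.18, 4.01 and 1.24% of counts in LN DT, against 1.61, 1.68, 1.28 and 1.05% in LN PBS, and 4.26, 3.22, 4.40 and 3.11% in lung DT, against 0.951, 1.36, 1.71 and 2.57% in lung PBS. Of 8 lists of cell markers, 3 had summed levels that did not overlap between DT and PBS in a tissue. The 7 B cell markers together ran from 143 to 898 CPM in LN DT, against 63.0 to 117 CPM in LN PBS. The 8 plasma cell markers ran from 454 to 737 CPM in LN DT, against 288 to 351 CPM in LN PBS, and 1 of them was called higher in LN DT (0.0646% of all genes). The 8 dendritic cell markers ran from 195 to 263 CPM in lung DT, against 133 to 180 CPM in lung PBS. Ranges of the summed NK cell, T cell, myeloid, erythroid and lung epithelial and endothelial lists overlapped in both tissues. No listed marker was at 0 in every library. In lung, however, no DT library lay within the PBS range of the NK cell or T cell list. NK cell sums were 56298, 22296, 20772 and 29005 CPM in lung DT, against 35983 to 40167 CPM in lung PBS. T cell sums were 549, 164, 192 and 189 CPM in lung DT, against 247 to 285 CPM in lung PBS. Lung DT replicates 2 and 3 had the highest myeloid sums (4189 and 3610 CPM) and the lowest Ncr1 (2514 and 2457 CPM) of all libraries. The part of these cell types in the results below was not tested. In bulk RNA a change in the number of cells that replicate DNA and a change in RNA per cell cannot be told apart.

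Over both tissues, 9 replication genes were called higher with DT and none lower, with each library taken as independent. Only Dtl stayed called when LN and lung libraries of the same treatment and number were joined. Dtl (log2 fold change 1.99), Clspn (2.60), Tyms (1.87), Rrm2 (1.51), Tk1 (1.37), Pola1 (1.33), Gmnn (1.15), Prim1 (1.13) and Rfc3 (0.80) were higher, by 1.74- to 6.07-fold. They encode fork and checkpoint factors, the enzymes that start DNA strands, a clamp loader subunit, the licensing inhibitor and 3 enzymes of deoxynucleotide supply. By contrast, all 6 subunits of the MCM2-7 helicase, which were among the more abundant members, lay between -0.33 and -0.13 and none passed.

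These values come from the mean of the DT effects in LN and in lung, in 1 edgeR quasi-likelihood model of the counts of 13940 genes, with Benjamini-Hochberg adjustment over all of them; a gene is called at an adjusted p under 0.05. The 9 of 33 members called higher compare with 2.47% of all genes, and the 0 called lower with 1.43%. The members were chosen with earlier results of these data known, so such shares describe the list and do not test it. No member was below PBS at an unadjusted p under 0.05 (9.39% of genes), and 13 were above (13.7%). DESeq2 called 11 members higher (8.05% of its genes) and 0 lower (4.01%), and limma-voom with quality weights called 14 higher (14%) and 1, Mcm4, lower (13.1%). Of the 33, 24 lay above 0, against 55.3% of all genes, and the members' median was 0.55 (0.35 without lung DT replicate 1), against 0.09 for all genes. The libraries of DT and PBS did not overlap in either tissue for 4 members, Dtl, Pola1, Tyms and Clspn, all higher in DT, against 0.603% of all genes that were higher without overlap; no member was lower without overlap (0.653%).

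The count of 9 rests on taking each library as independent. The labels do not say whether LN and lung libraries with the same number came from the same mouse. With LN and lung counts of the same treatment and number summed, or with a correlation (0.284) fitted within them in limma-voom, only Dtl of the 9 stayed called (adjusted p = 0.0156 summed, 0.0426 with the correlation). The log2 fold changes of the other 8 ran from 0.78 (Rfc3) to 2.54 (Clspn) summed and from 0.76 (Rfc3) to 2.67 (Clspn) with the correlation. Their adjusted p ran from 0.0661 to 0.205 summed and from 0.0677 to 0.161 with the correlation. With the mitochondrial share as a covariate no member and no other gene was called. In that fit the log2 fold changes were 1.54 for Dtl, 1.55 for Clspn, 1.37 for Rrm2, 1.32 for Pola1 and 1.09 for Tk1, while Tyms had 0.55, Prim1 0.21, Rfc3 0.19 and Gmnn 0.16. The lung DT and lung PBS libraries do not overlap in that share, and 3 of 4 LN DT libraries lie above all LN PBS libraries, so treatment and this share cannot be told apart. Leaving out single libraries gave 4 to 9 calls: 4 without lung PBS replicate 3 (Dtl, Pola1, Tk1 and Tyms), and 5 without LN DT replicate 2 or 3, LN PBS replicate 2 or 4, or lung PBS replicate 1 or 2. Over the 16 fits that each left out 1 library, Rfc3 lost its call in 13, Gmnn and Prim1 each in 12, Rrm2 in 8 and Clspn in 1. Dtl, Pola1, Tyms and Tk1 kept theirs in all 16. Without both DT libraries numbered 1, 7 of the 9 stayed called, Gmnn and Prim1 did not, and Uhrf1 was added.

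**Figure D1:**
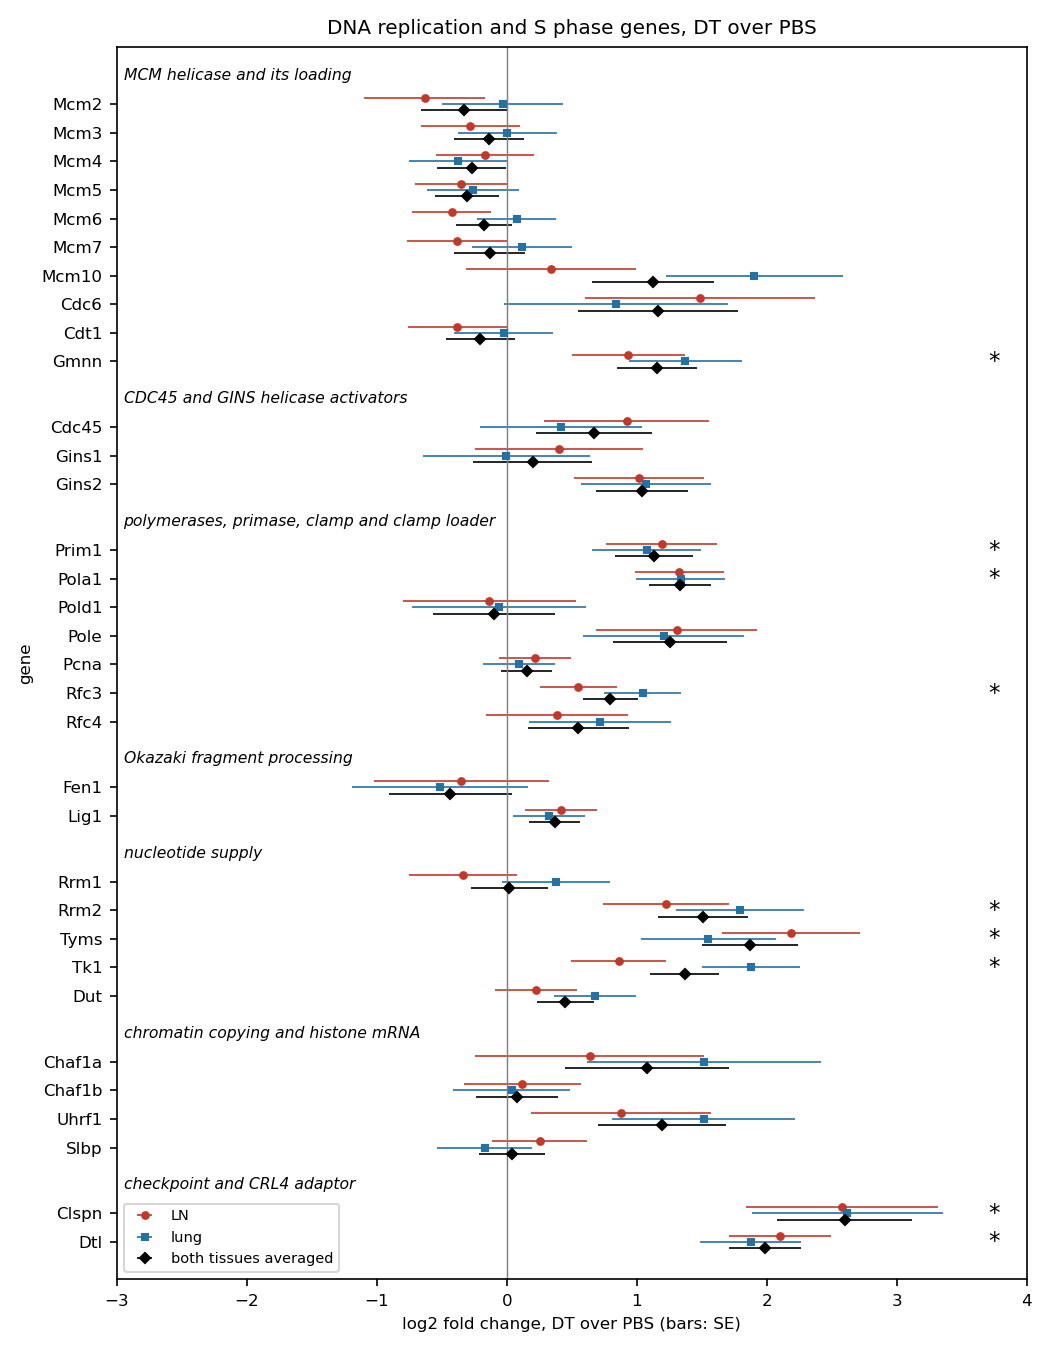
Log2 fold change of DT over PBS for all 33 genes, grouped by role, in LN (circles), in lung (squares) and averaged over both (diamonds); bars are standard errors and asterisks mark the 9 genes called over both tissues. Dtl, Clspn, Tyms, Rrm2 and Tk1 lie to the right in both tissues, and the averages of Mcm2 to Mcm7 lie between -0.33 and -0.13.

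Dtl encodes CDT2, the adaptor by which the CRL4 ubiquitin ligase destroys CDT1 and other proteins on PCNA during S phase. It stood at 46.3, 48.99, 50.7 and 25.5 CPM in LN DT, against 8.52, 15.9, 6.196 and 9.28 CPM in LN PBS, and at 101, 93.4, 41.4 and 93.00 CPM in lung DT, against 21.3, 11.9, 31.5 and 24.5 CPM in lung PBS. The lowest DT library was above the highest PBS library in each tissue, although replicate 4 in LN DT and replicate 3 in lung DT lay well below the other DT libraries. The log2 fold change over both tissues was 1.99 ± 0.28 (SE, 8 DT and 8 PBS libraries), with an edgeR adjusted p of 0.00215, the smallest of the 33. Dtl (ENSMUSG00000037474, chromosome 1, 191537356 to 191575544 on GRCm38) lies on the minus strand, and no exon of it overlaps another annotated gene.

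Clspn encodes claspin, which bridges the fork to the checkpoint kinase CHK1. Its level was low, at 17.99, 10.04, 12.03 and 3.63 CPM in LN DT, against 0.105, 3.27, 1.73 and 2.15 CPM in LN PBS, and at 27.3, 27.6, 12.9 and 10.1 CPM in lung DT, against 3.67, 2.22, 3.02 and 3.600 CPM in lung PBS. LN PBS replicate 1 held a single count of Clspn, LN DT replicate 4 lay only just above the highest LN PBS library, and in lung every DT library was more than 2-fold above every PBS library. Clspn had the largest log2 fold change of the 33 members over both tissues, 2.60 ± 0.52 (SE; edgeR adjusted p = 0.0179), and an error (SE) above those of the other 8 that passed. The gene (ENSMUSG00000042489, chromosome 4, 126556935 to 126593903) lies on the plus strand.

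**Figure D2:**
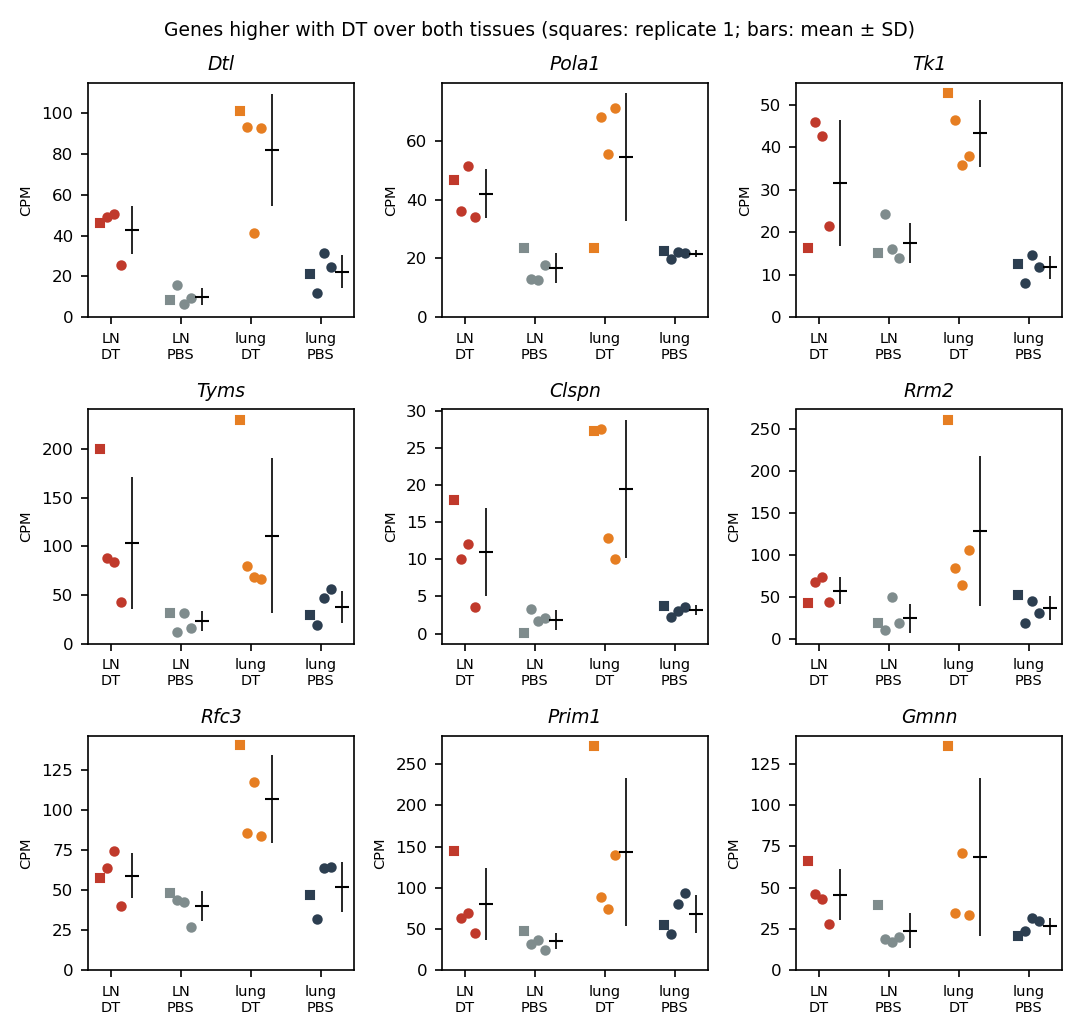
CPM per library of the 9 genes called higher with DT over both tissues, in LN DT, LN PBS, lung DT and lung PBS; squares mark replicate 1, and the bar beside each group is its mean with SD. For Dtl, Pola1, Tyms and Clspn no DT library lies at or below a PBS library of its tissue; lung DT replicate 1 is the highest lung library for 7 of the 9, all but Pola1 and Clspn.

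Among the polymerases, primase, clamp and clamp loader, 3 of 7 members were called higher over both tissues. Pola1 encodes the catalytic subunit of DNA polymerase alpha, which extends the RNA primers at which each DNA strand starts. It stood at 46.6, 36.2, 51.4 and 34.1 CPM in LN DT, against 23.5, 13.1, 12.6 and 17.8 CPM in LN PBS, and at 23.4, 68.2, 55.7 and 71.3 CPM in lung DT, against 22.5, 19.7, 22.2 and 21.8 CPM in lung PBS. Lung DT replicate 1, at 23.4 CPM, was barely above the highest lung PBS library (22.5 CPM), while the other DT libraries of both tissues were clearly apart from PBS. The log2 fold change was 1.33 ± 0.24 (SE; edgeR adjusted p = 0.0111), with nearly the same value in LN (1.33) and lung (1.34).

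Prim1 encodes the small primase subunit, which makes those primers. It stood at 145, 63.2, 69.3 and 44.8 CPM in LN DT, against 47.6, 32.1, 36.3 and 24.8 CPM in LN PBS, and at 272, 89.2, 73.8 and 139.8 CPM in lung DT, against 55.3, 43.6, 79.7 and 93.97 CPM in lung PBS. Groups overlapped in both tissues, and replicate 1 was by far the highest DT library in each. Prim1 had a log2 fold change of 1.13 ± 0.30 (edgeR adjusted p = 0.0452).

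Rfc3, a subunit of the clamp loader, stood at 57.6, 63.8, 74.00 and 40.2 CPM in LN DT, against 48.2, 43.4, 42.6 and 26.7 CPM in LN PBS, and at 140.3, 85.3, 118 and 83.6 CPM in lung DT, against 47.1, 31.6, 63.7 and 64.1 CPM in lung PBS. The lung groups did not overlap and the LN groups did. Its log2 fold change of 0.80 ± 0.21 (edgeR adjusted p = 0.0446) was the smallest of the 9. Pola1 (ENSMUSG00000006678, chromosome X, 93304767 to 93632155, minus strand), Prim1 (ENSMUSG00000025395, chromosome 10, 128015168 to 128030037, plus strand) and Rfc3 (ENSMUSG00000033970, chromosome 5, 151642756 to 151651242, minus strand) have no exon overlap with other annotated genes.

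The other 4 members of this group did not pass. Pole, the catalytic subunit of the leading-strand polymerase epsilon, had a value as large as those called (1.26 ± 0.44, edgeR adjusted p = 0.102), at 8.37 to 30.2 CPM in LN DT, against 1.47 to 16.5 CPM in LN PBS, and at 16.2 to 39.7 CPM in lung DT, against 6.38 to 18.5 CPM in lung PBS. Rfc4, a further clamp loader subunit, had 0.55 ± 0.39 (adjusted p = 0.408). Its lung DT libraries ran from 7.76 CPM in replicate 2 to 124 CPM in replicate 1, a wider span than in the other 3 groups. Pcna, the clamp itself, had 0.15 ± 0.20 (95% interval -0.28 to 0.58), and Pold1, the catalytic subunit of polymerase delta, -0.10 ± 0.47 (-1.13 to 0.93). Pold1 was low in both DT libraries numbered 1, with 6.85 CPM in LN DT and 1.15 CPM in lung DT, while the other DT libraries ran from 32.2 to 56.2 CPM.

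Of the 5 genes of nucleotide supply, 3 were called higher over both tissues. Tyms encodes thymidylate synthase, which makes dTMP from dUMP. It stood at 201, 87.7, 83.7 and 42.9 CPM in LN DT, against 31.4, 11.9, 31.7 and 15.95 CPM in LN PBS, and at 230.1, 79.5, 68.3 and 66.02 CPM in lung DT, against 29.4, 19.1, 46.8 and 55.7 CPM in lung PBS. The groups did not overlap in either tissue, and replicate 1 was more than 2-fold above the other DT libraries in each. The log2 fold change was 1.87 ± 0.37 (SE; edgeR adjusted p = 0.0168).

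Tk1, the cytosolic thymidine kinase that salvages thymidine in S phase, stood at 16.3, 45.95, 42.7 and 21.4 CPM in LN DT, against 15.1, 24.4, 16.1 and 14.03 CPM in LN PBS, and at 52.9, 46.5, 35.9 and 37.99 CPM in lung DT, against 12.5, 8.05, 14.6 and 11.8 CPM in lung PBS. All lung DT libraries were above all lung PBS libraries, while in LN replicates 2 and 3 of the DT group were above every PBS library and replicates 1 and 4 were not. Its log2 fold change was 1.37 ± 0.26 (edgeR adjusted p = 0.0147).

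Rrm2, the regulated small subunit of ribonucleotide reductase, stood at 43.2, 67.6, 74.5 and 44.5 CPM in LN DT, against 18.6, 10.9, 49.8 and 18.9 CPM in LN PBS, and at 261, 84.5, 64.2 and 106 CPM in lung DT, against 52.9, 19.4, 44.7 and 30.7 CPM in lung PBS. The lung groups did not overlap, and LN PBS replicate 3 lay within the LN DT range. The log2 fold change was 1.51 ± 0.35 (edgeR adjusted p = 0.0295). Part of Rrm2, 419 bases, matches the processed pseudogene Gm48455 at 95.5% identity, so reads could be shared between them. Gm48455 is not among the genes counted.

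The partner of Rrm2 did not follow it: Rrm1, the large subunit, had 0.02 ± 0.29 (95% interval -0.62 to 0.66) and stood at 39.9 to 92.1 CPM in LN DT, against 52.1 to 116 CPM in LN PBS, and at 51.5 to 229.6 CPM in lung DT, against 63.4 to 110.1 CPM in lung PBS. Dut, the dUTPase that keeps uracil out of DNA, had 0.45 ± 0.22 (edgeR adjusted p = 0.232). Tyms (ENSMUSG00000025747, chromosome 5, 30058202 to 30073617, minus strand), Tk1 (ENSMUSG00000025574, chromosome 11, 117815526 to 117826092, minus strand) and Rrm2 (ENSMUSG00000020649, chromosome 12, 24708241 to 24714146, plus strand) are protein-coding genes, as are the other members.

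In the group of the MCM helicase and its loading, 1 of 10 members, Gmnn, was called higher over both tissues. Geminin binds CDT1 and prevents relicensing in S and G2. Gmnn stood at 65.96, 45.95, 42.95 and 27.96 CPM in LN DT, against 39.4, 19.02, 16.7 and 20.2 CPM in LN PBS, and at 136, 34.4, 70.8 and 33.4 CPM in lung DT, against 20.4, 23.9, 31.8 and 29.8 CPM in lung PBS. Lung DT replicate 1 was far above replicates 2 and 4 of its group, and LN PBS replicate 1 lay within the LN DT range. The log2 fold change was 1.15 ± 0.31 (edgeR adjusted p = 0.0455), the closest to the threshold of the 9. Gmnn (ENSMUSG00000006715, chromosome 13, 24751845 to 24761923) lies on the minus strand.

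Mcm2 to Mcm7 were below or near the PBS level. In LN all 6 lay below 0 (-0.63 to -0.17), in lung 3 lay above and 3 below (-0.37 to 0.12), and over both tissues all 6 lay below 0 (-0.33 to -0.13). None passed (edgeR adjusted p from 0.477 to 0.800 over both tissues), and their 95% intervals together ran from -1.05 to 0.46, so a 2-fold increase lies outside each of them, while a 2-fold decrease lies inside that of Mcm2. Mcm2 stood at 10.97, 58.1, 52.2 and 97.4 CPM in LN DT, against 104, 72.7, 91.6 and 71.3 CPM in LN PBS, and at 33.4, 90.4, 42.2 and 84.9 CPM in lung DT, against 84.7, 48.3, 75.3 and 47.9 CPM in lung PBS. LN DT replicate 1 was the lowest LN library of Mcm2 by a wide margin, and LN DT replicate 4 lay within the PBS range. Mcm6, the most abundant subunit per length in LN PBS, stood at 98.7, 114, 128 and 184 CPM in LN DT, against 205, 124, 247 and 129 CPM in LN PBS, and at 205, 221, 128 and 141 CPM in lung DT, against 210.3, 126, 207 and 116 CPM in lung PBS, with overlap of the groups in both tissues.

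The direction of the 6 helicase subunits depended on the fit. With the mitochondrial share as a covariate all 6 lay above 0 (0.20 to 0.75, none called), without both DT libraries numbered 1 there were 2 above, and in limma-voom with quality weights 1 lay above and Mcm4 was called lower. Median-ratio scaling and total counts alone kept all 6 below 0 over both tissues and put 4 above and 2 below in lung. A processed pseudogene, Gm5487, matches 2157 bases of Mcm7 and was not analysed here, so reads of Mcm7 could be shared with it.

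**Figure D3:**
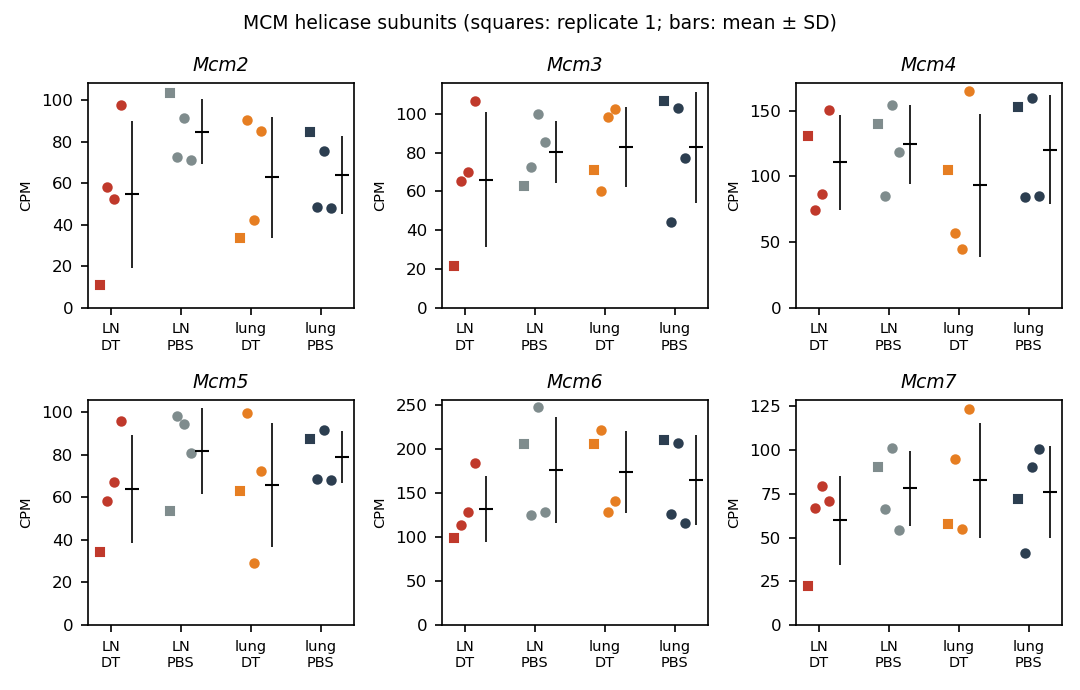
CPM per library of the helicase subunits Mcm2 to Mcm7 in LN DT, LN PBS, lung DT and lung PBS; squares mark replicate 1, and the bar beside each group is its mean with SD. DT and PBS libraries overlap in every panel and tissue, and LN DT replicate 1 is the lowest LN library for Mcm2, Mcm3, Mcm5, Mcm6 and Mcm7.

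Mcm10, which helps activate the loaded helicase, had 1.12 ± 0.47 over both tissues (edgeR adjusted p = 0.160). Cdc6, the loading ATPase, had 1.16 ± 0.62 (adjusted p = 0.267) and no count in LN PBS replicate 1. Cdt1, its partner in loading, had -0.20 ± 0.27 (95% interval -0.79 to 0.38), with LN PBS libraries within 46.3 to 55.9 CPM and LN DT libraries at 19.5, 37.8, 45.96 and 48.1 CPM. In lung, Cdt1 stood at 15.9, 69.5, 37.8 and 49.6 CPM in DT, against 27.9 to 51.9 CPM in PBS. The inhibitor Gmnn passed and the licensing factor Cdt1 did not. The interval of Cdt1 includes values of either sign, and the difference between these genes was not tested.

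None of CDC45 and the GINS subunits passed. Gins2 came closest, with 1.04 ± 0.35 (edgeR adjusted p = 0.0934). It stood at 16.4, 12.9, 14.6 and 7.37 CPM in LN DT, against 5.36, 8.36, 7.31 and 4.299 CPM in LN PBS, and at 25.8, 12.5, 10.2 and 9.17 CPM in lung DT, against 6.35, 3.89, 8.22 and 8.94 CPM in lung PBS, with no overlap between the lung groups, where lung DT replicate 4 lay just above the highest PBS library. Exons of another gene, Gse1, cover 67.3% of its exon length, so the counts of Gins2 are uncertain. Cdc45 had 0.67 ± 0.45 (adjusted p = 0.379) and Gins1 0.20 ± 0.46 (0.823), Gins1 with at most 11.05 CPM in any library.

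Of the enzymes of Okazaki fragment processing, DNA ligase 1 (Lig1) had 0.37 ± 0.20 (edgeR adjusted p = 0.270) and the flap nuclease Fen1 -0.43 ± 0.48 (0.611). Fen1 never exceeded 4.59 CPM, and 78.8% of its exon length is shared with other annotated genes, so its low counts are uncertain.

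The 4 genes of chromatin copying and histone mRNA did not pass. Uhrf1, which recruits the maintenance DNA methyltransferase to new DNA, had 1.20 ± 0.49 (edgeR adjusted p = 0.156). It stood at 5.31, 19.1, 24.3 and 18.1 CPM in LN DT, against 7.78, 12.5, 13.4 and 2.71 CPM in LN PBS, and at 4.02, 18.4, 14.95 and 29.1 CPM in lung DT, against 10.9, 5.83, 5.08 and 1.37 CPM in lung PBS. Both DT libraries numbered 1 lay within the PBS range of their tissue, and the other 3 DT libraries of each tissue were above every PBS library. Chaf1a had 1.08 ± 0.63 (adjusted p = 0.317) and Chaf1b 0.08 ± 0.32 (0.907); both encode subunits of the histone chaperone CAF-1, and 52.5% of the exon length of Chaf1a is shared with Ubxn6. Slbp, which binds the stem-loop of histone mRNA, had 0.04 ± 0.26 (0.942).

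By library, the share of members outside the PBS range differed among DT mice. In LN, 12, 17, 17 and 10 of 33 members were above every LN PBS library in DT replicates 1 to 4, against 33.8, 31, 30.2 and 15.6% of all tested genes. In LN DT replicate 1, 9 of 33 members were below every PBS library, against 31.7% of all genes. Among them were 5 of the helicase subunits. That library was near the share of all genes in both directions. In lung, 20, 18, 15 and 20 of 33 members were above every PBS library, against 30.1, 30.9, 31.3 and 26.4% of all genes. Below every lung PBS library were 4, 4, 7 and 2 members (38.4, 29.2, 26.9 and 27.1% of all genes). Each PBS library was also set against the other PBS libraries of its tissue, which are fewer than for a DT library. In LN PBS replicates 1 to 4, 6, 10, 16 and 1 members were above the others (26.3, 29.6, 25 and 18% of all genes). In lung PBS the counts were 11, 2, 12 and 8 (19.8, 30.6, 20.2 and 29.2%). Of the DT libraries, LN DT replicate 4 had the fewest members above PBS, but also the lowest share of all genes above PBS (15.6%). Its mitochondrial share was the lowest of the DT libraries, 1.24%, and a link between these values was not tested. Lung DT replicate 1 was the highest lung library for 16 of the 33 members.

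**Figure D4:**
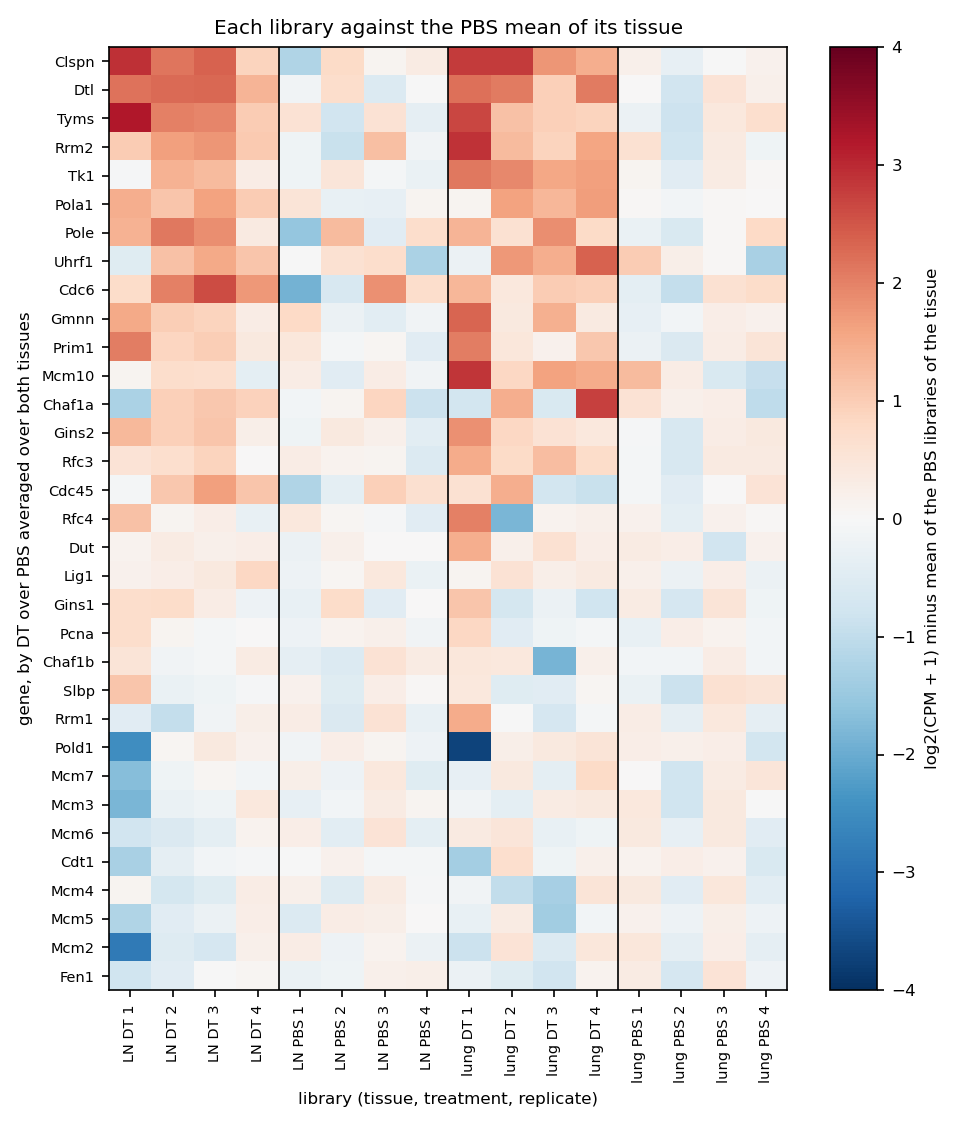
Each of the 16 libraries (columns) for the 33 genes (rows, ordered by DT over PBS averaged over both tissues), as log2(CPM + 1) minus the mean of the PBS libraries of the same tissue; red is above and blue below that mean. Clspn, Dtl and Tyms are red in all 8 DT libraries, and the columns LN DT 1 and lung DT 1 hold the most extreme values in both directions.

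In LN alone no member was called. At an unadjusted p under 0.05 there were 8 members higher (8.29% of all genes) and 0 lower (3.52%), while edgeR called 0.0646% of all genes higher and none lower. DESeq2 called 4 members higher (1.97% of its genes), which were Dtl, Tyms, Pola1 and Clspn, and limma-voom with quality weights called 13 (14.9%), and neither called a member lower (0.458% and 11.8%). Those 4 were also the members whose LN groups did not overlap (5.05% of genes higher without overlap, 3.42% lower). The smallest p values belonged to Dtl (2.10 ± 0.39, edgeR adjusted p = 0.0633), Tyms (2.19 ± 0.53, 0.139), Pola1 (1.33 ± 0.34, 0.151), Clspn (2.58 ± 0.74, 0.204) and Prim1 (1.19 ± 0.43, 0.277). As group means, Dtl averaged 42.9 ± 11.7 CPM in LN DT and 9.97 ± 4.15 CPM in LN PBS, and Tyms 104 ± 67.7 CPM in LN DT and 22.7 ± 10.3 CPM in LN PBS (SD, n = 4 each). Of the 33, 23 lay above 0 (54.6% of all genes), with a median of 0.40 against 0.08 for all genes. Dtl did pass without LN PBS replicate 2, without lung DT replicate 3 and without both DT libraries numbered 1. Dtl and Tyms passed without LN DT replicate 4, and Dtl, Tyms and Pola1 without lung DT replicate 1.

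In lung alone no member was called either. There were 13 members higher at an unadjusted p under 0.05 (7.66% of all genes) and 0 lower (7.06%), and edgeR called 0.0574% of all genes higher and 0.0502% lower. DESeq2 called 7 members higher (2.06% of its genes) and limma-voom with quality weights 4 (1.81%), and neither called a member lower (1.36% and 1.35%). The lung groups did not overlap for 9 members, all higher in DT: Tk1, Dtl, Pola1, Rrm2, Clspn, Rfc3, Gmnn, Tyms and Gins2 (3.35% of genes higher without overlap, 4.53% lower). The smallest p values belonged to Tk1 (1.88 ± 0.38, edgeR adjusted p = 0.0672), Dtl (1.88 ± 0.39, 0.0680), Pola1 (1.34 ± 0.34, 0.119), Rrm2 (1.80 ± 0.49, 0.139) and Clspn (2.62 ± 0.73, 0.153). Tk1 averaged 43.3 ± 7.88 CPM in lung DT and 11.7 ± 2.74 CPM in lung PBS, and Dtl 82.2 ± 27.5 CPM in lung DT and 22.3 ± 8.13 CPM in lung PBS (SD, n = 4 each). Of the 33, 25 lay above 0 (54.5% of all genes), with a median of 0.68 against 0.09. The members' median in lung was 0.30 without lung DT replicate 1, 0.29 without both DT libraries numbered 1, 0.46 without lung PBS replicate 3 and 0.27 in limma-voom with quality weights. Without LN DT replicate 1 or without lung DT replicate 1, 3 or 4 there was 1 call instead of 0.

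Whether DT acted differently in the 2 tissues was tested with the LN effect minus the lung effect. No member was called (edgeR called 0.00717% of all genes higher and 0 lower), none was at an unadjusted p under 0.05 (2.88% and 1.33% of genes), and neither DESeq2 (0.130% higher and 0.00721% lower over its genes) nor limma-voom (0 of all genes) called any. Of the 33, 13 lay above 0, against 51.8% of all genes. The smallest p values were those of Tk1 (-1.02 ± 0.52, edgeR adjusted p = 1.000), Mcm10 (-1.56 ± 0.93) and Rrm1 (-0.71 ± 0.59). Mcm10 stood at 9.59, 14.9, 14.7 and 6.38 CPM in LN DT, against 10.9, 6.18, 11.03 and 7.81 CPM in LN PBS, and at 25.1, 5.38, 9.83 and 9.04 CPM in lung DT, against 7.55, 3.33, 1.33 and 0.869 CPM in lung PBS, and Rrm1 at 56.2, 39.9, 71.2 and 92.1 CPM in LN DT, against 96.8, 52.1, 116 and 62.8 CPM in LN PBS, and at 229.6, 81.9, 51.5 and 78.5 CPM in lung DT, against 102, 63.8, 110.1 and 63.4 CPM in lung PBS. For Dtl the difference was 0.23 ± 0.53 with a 95% interval of -0.93 to 1.39, and for Clspn -0.04 ± 1.12 with -2.48 to 2.40, an interval that spans 2-fold differences in either direction.

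Between tissues, Pcna was the member that passed, higher in lung than in LN with and without DT. In PBS mice it stood at 184, 271, 246 and 209 CPM in lung, against 88.5, 115, 118 and 94.2 CPM in LN, without overlap, a log2 fold change of 1.13 ± 0.28 (edgeR adjusted p = 0.0310). In DT mice it stood at 398, 163, 198 and 213 CPM in lung, against 169, 112, 96.7 and 105 CPM in LN, where LN DT replicate 1 lay within the lung range (1.01 ± 0.28, adjusted p = 0.0380). It was 1 of 33 members called higher in each, against 2.70% of all genes for PBS and 3.97% for DT, and 0 members were lower, against 0.904% and 2.78%. The call in PBS mice was lost without any 1 of the LN PBS libraries or of lung PBS replicates 2 to 4. The call in DT mice was lost without LN DT replicate 2, 3 or 4, LN PBS replicate 3 or 4, lung DT replicate 1 or lung PBS replicate 1. Pcna (ENSMUSG00000027342, chromosome 2, 132249162 to 132253314, minus strand) has a near-identical copy over 781 bases in the pseudogene Pcna-ps2, which held 126 counts in all libraries, against 20842 of Pcna.

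Dut went the other way without passing: 31.5, 30.5, 14.3 and 28.6 CPM in lung PBS, against 44.5, 60.8, 52.3 and 52.8 CPM in LN PBS, without overlap (-1.01 ± 0.32, edgeR adjusted p = 0.0878). Dtl was higher in lung than in LN by 1.17 ± 0.39 in PBS mice (adjusted p = 0.105) and by 0.94 ± 0.38 in DT mice (0.153), neither past the threshold in edgeR. Rfc3 was higher in lung DT than in LN DT without overlap (0.86 ± 0.30, edgeR adjusted p = 0.0926). In limma-voom with a correlation within treatment and number, lung DT against LN DT called 3 members: Pcna (0.96, adjusted p = 0.00657), Rfc3 (0.86, 0.0241) and Dtl (0.93, 0.0434). With the replicate block in edgeR, Pcna alone was called (0.99, adjusted p = 0.0482), with Rfc3 at 0.0921 and Dtl at 0.198. In PBS mice 4 members were higher in lung and 2 lower at an unadjusted p under 0.05 (10.3% and 6.54% of genes), and in DT mice 4 were higher and 0 lower (10.8% and 10.1%). DESeq2 called 2 members higher and 1 lower in PBS mice (5.85% and 3.00% of genes) and 2 higher in DT mice (7.41%). Voom called 4 higher and 1 lower in PBS mice (8.85% and 7.46%) and 1 higher in DT mice (7.22%). Of the 33, 17 lay above 0 in PBS mice (49.3% of genes) and 26 in DT mice (47.8%). Groups without overlap were found for 1 member higher, Pcna, and 2 lower, Dut and Pold1, in PBS mice (9.25% and 9.91% of genes), and for 1 higher in DT mice (5.57%).

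Per kilobase of annotated exon, the members spanned a wide range of levels. In LN PBS the highest were Slbp (46.2 CPM per kb), Pcna (43.3), Mcm6 (37.8) and Mcm4 (34.7), and the lowest Clspn (0.253), Chaf1a (0.486), Dtl (0.727) and Pole (0.743). Of the members called higher over both tissues, Dtl was at 3.13 CPM per kb in LN DT and 0.727 in LN PBS. Pola1 was at 4.77 in LN DT and 1.899 in LN PBS, while Gmnn stood at 31.2 in LN DT and 16.3 in LN PBS. Exon length is the union over annotated transcripts, so the scale depends on the annotation.

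Other replication genes were mixed. Of 48 further genes of this kind, 31 lay above 0 over both tissues (median 0.34), against 55.3% of all genes. Of the 48, 6 were called higher (2.47% of all genes) and 2 lower (1.43%). The higher ones were Ticrr (2.12 ± 0.52, edgeR adjusted p = 0.0377), Prim2 (1.71 ± 0.47, 0.0499), Atad5 (1.54 ± 0.41, 0.0460), Pole2 (1.49 ± 0.35, 0.0317), Hells (1.31 ± 0.33, 0.0405) and Topbp1 (0.79 ± 0.19, 0.0357). Prim2 encodes the partner of Prim1 in primase, Pole2 the accessory subunit beside Pole, and treslin (Ticrr) and Topbp1 act in helicase activation. The lower ones were Pold2 (-0.996 ± 0.26, 0.0443), the accessory subunit of polymerase delta, and Rnaseh2c (-0.75 ± 0.20, 0.0469), a subunit of RNase H2. None of the 48 was called once the mitochondrial share was a covariate, and leaving out a single library gave 0 to 9 higher. There were 0 without LN DT replicate 1, 2 or 3, LN PBS replicate 2, 3 or 4, or lung PBS replicate 1, 2 or 3, and 1 without LN PBS replicate 1.

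Genes of mitosis and of G1 to S control had larger median values. Of 33 mitosis and G2/M genes 31 lay above 0 (55.3% of all genes), with a median of 1.76 and 13 called higher (2.47%). The smallest p values were those of Mki67, a proliferation marker (2.42 ± 0.29, edgeR adjusted p = 6.65e-04), and the cytokinesis kinase gene Cit (2.72 ± 0.33, 6.65e-04). The other 11, Knl1, Top2a, Cenpe, Cenpf, Cdca8, Birc5, Ccnb2, Spc25, Nusap1, Ckap2l and Ttk, ran from 1.47 (Ckap2l) to 3.39 (Ttk). In lung alone 4 mitosis genes were called higher (0.0574% of all genes), and in LN alone none was (0.0646%). Those in lung were Mki67 (2.90 ± 0.42, edgeR adjusted p = 0.0129), Cit (2.99 ± 0.48, 0.0162), Knl1 (2.82 ± 0.46, 0.0162) and Top2a (2.48 ± 0.47, 0.0491). The lung count was 0 without lung PBS replicate 1 or 2 and with the mitochondrial share as a covariate. It was 1 without lung PBS replicate 3 or 4, and 13 with DESeq2 (2.06% of its genes). The LN count was 4 without LN DT replicate 4 or lung DT replicate 1, and 1 without both DT libraries numbered 1. It was 3 with no gene filter, 8 with DESeq2 (1.97% of its genes) and 23 with limma-voom and quality weights (14.9%). Of 9 genes of S phase cyclins and E2F factors, 8 lay above 0 (55.3% of all genes), with a median of 1.11, and 2 were called higher (2.47%). These were Ccne2, a cyclin of S phase entry (2.74 ± 0.47, edgeR adjusted p = 0.00875), and the repressor E2f7 (adjusted p = 0.00862). E2f7 was also called in LN alone (adjusted p = 0.0270), and no fold is given because the 4 LN PBS libraries held a few counts of it. Without LN DT replicate 1, 2 or 3, LN PBS replicate 1 or 4, or lung PBS replicate 1, 2 or 3, the mitosis list had 5 to 8 calls over both tissues, and with the mitochondrial share as a covariate it had 0. The median of the 33 replication members, 0.55, lay below those of both lists, which is a description of counts and medians and was not tested. These lists too were chosen with earlier results of these data known.

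**Figure D5:**
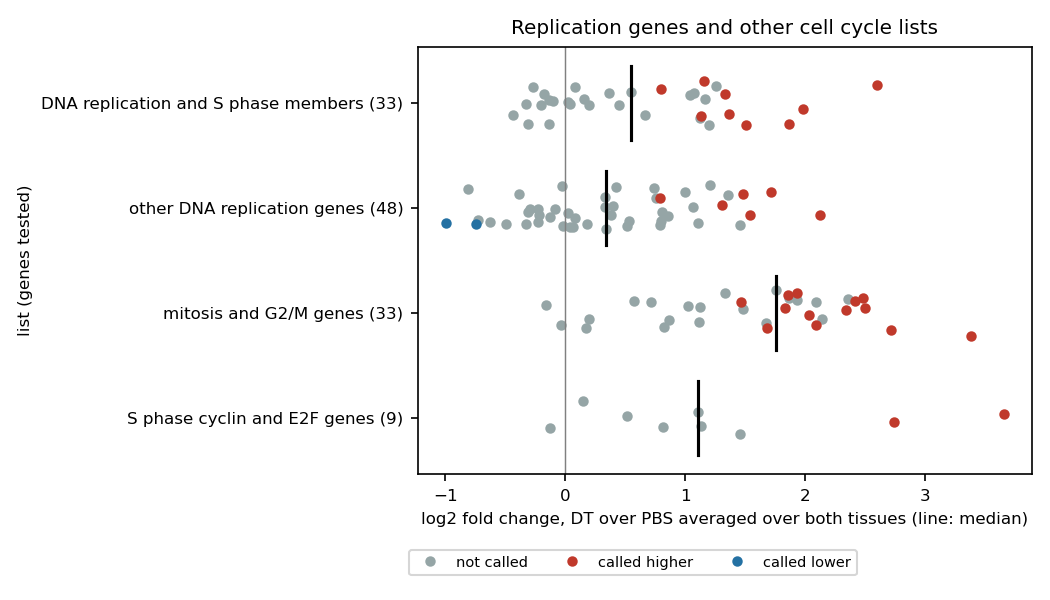
Log2 fold change of DT over PBS averaged over both tissues for each tested gene of the 33 replication and S phase members, 48 other DNA replication genes, 33 mitosis and G2/M genes and 9 S phase cyclin and E2F genes; red and blue points are called higher and lower, grey points are not called, and the black line is the list's median. Medians are 0.55, 0.34, 1.76 and 1.11 from top to bottom.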

How the data were processed

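RNA of sorted NK cells was sequenced by Smart-seq2, per the labels' protocols; this full-length method uses no molecular identifiers and does not mark strand. HISAT2 (aligner), HTSeq (counter) and the build GRCm38 were used, per the submitters' processing notes. Their versions and settings: not given in the sources used here. Raw read counts of 49671 Ensembl genes in 16 libraries were deposited by the authors, and all 16 columns were used. Gene positions come from the deposited table, and strand, exon length and overlaps from GENCODE annotation of the same build.

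Counts were tested with edgeR 4.0.16 in R 4.3.3: filterByExpr by group (minimum count 10, minimum total 15) left 13940 genes, libraries were scaled by TMM, and 4 group means were fitted with robust quasi-likelihood and 12 residual degrees of freedom (common biological coefficient of variation 0.621). The 6 contrasts were DT against PBS in LN, in lung and averaged, the LN effect minus the lung effect, and lung against LN with PBS and with DT. Called means a two-sided p below 0.05 after Benjamini-Hochberg adjustment over the 13940 genes. SE are those implied by the F statistic, and 95% intervals take the t quantile at 12 degrees of freedom. CPM use TMM-scaled library sizes, and mean ± SD have n = 4. The fit was also run on simulated counts with known changes, in independent libraries without correlation within number or a library quality effect. That run therefore does not bear on pairing or library quality.

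Groups have 4 biological replicates each, per the series' design text; nothing ties libraries to mice beyond this, so p-values take each library as an animal. Same-numbered LN DT and lung DT libraries deviated together (correlations of deviations from group means 0.412, 0.194, 0.230 and 0.184), which by the rule used (all above 0.1) pairs them for lung DT against LN DT. The block on number changed no call of a member there, while limma-voom with a correlation within treatment and number also called Rfc3 and Dtl. Alternatives were DESeq2 1.42.0, limma-voom (limma 3.58.1) with quality weights, other scalings and filters, robust=FALSE, the replicate block, the mitochondrial share as a covariate, libraries left out, and 2 fits that join LN and lung libraries by treatment and number, chosen after seeing the data. The 33 members and the other lists were chosen with earlier results of these data known.

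Named in full per comparison of DT with PBS are members called and the 5 of smallest p, and per other comparison those called and the 3 of smallest p; other lists contribute called genes and their 3 of smallest p. For those lists, called genes are printed, most by range. Reads shared with near-identical copies (BLAST 2.17.0, at least 95% identity over 400 bases) can make Mcm7, Cdc6, Pcna, Rrm2, Uhrf1 and Slbp uncertain, and exon overlap Fen1, Gins2 and Chaf1a.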

Additional observations from a re-analysis of the deposited data

Results flagged for a closer look

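In each group of 4 libraries, a library was singled out where its gap to the nearest other was large against the group's whole range (Dixon's criterion at 95%). Of 132 groups of member genes checked, 9 held such a library. Of all 168 groups checked, the summed marker lists among them, 13 did. Chance gives about 1 in 20. Of the 13, 5 were LN DT replicate 1 or lung DT replicate 1.

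Lung DT replicate 1 had 229.6 CPM of Rrm1 (the others 51.5 to 81.9) and 230.1 CPM of Tyms (66.0 to 79.5). LN DT replicate 1 had 599.7 CPM of Slbp (228 to 265) and 1.03 CPM of Chaf1a (8.14 to 9.14). Lung DT replicate 3 had 41.4 CPM of Dtl (93.0 to 101), still above every lung PBS library. LN PBS replicate 1 had 39.4 CPM of Gmnn (16.7 to 20.2). Lung PBS replicate 3 had 14.3 CPM of Dut (28.6 to 31.5) and 24.8 CPM of Chaf1b (18.3 to 18.4). Lung PBS replicate 4 had 15.9 CPM of Pold1 (31.6 to 33.2).

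Among the summed marker lists, T cell markers reached 549 CPM in lung DT replicate 1 (164 to 192 in the others). Plasma cell markers reached 351 CPM in LN PBS replicate 3 (288 to 297), myeloid markers 2815 CPM in lung PBS replicate 2 (474 to 730.3) and erythroid markers 28.1 CPM in LN PBS replicate 3 (1.21 to 1.58).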

How the results depend on the processing

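Counts of members called differed between settings as follows. With DESeq2 there were 4 higher in LN, 7 in lung, 2 higher and 1 lower in lung PBS against LN PBS, and 2 higher in lung DT against LN DT. With limma-voom and quality weights there were 13 higher in LN, 4 in lung, 14 higher and 1 lower over both tissues, and 4 higher and 1 lower in lung PBS against LN PBS. Without both DT libraries numbered 1 there were 1 higher in LN, 3 in lung, 4 higher and 1 lower in lung PBS against LN PBS, and 1 lower in lung DT against LN DT. With no gene filter there were 1 in LN and 0 in lung DT against LN DT, with genes kept at a mean of 5 CPM or more 1 in LN and 1 in lung, and with total counts alone 1 lower in lung PBS against LN PBS. The mitochondrial share as a covariate gave 0 over both tissues. Joining LN and lung libraries by number gave 1 over both tissues in both fits, and 3 higher in lung DT against LN DT with the correlation (Pcna, Rfc3 and Dtl). Rrm1 reversed in the LN effect minus the lung effect without both DT libraries numbered 1 (0.058). The causes were not tested.

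Leaving out single libraries gave 0 to 3 higher in LN, 0 to 1 in lung, 4 to 9 over both tissues, 0 to 1 higher and 0 to 1 lower in lung PBS against LN PBS, and 0 to 1 higher in lung DT against LN DT. Counts of members called in either direction for the LN effect minus the lung effect, and of members called lower in LN or in lung, were 0 in every setting run. With the replicate block the 9 members over both tissues and Pcna in both tissue comparisons kept their calls, and no other member was called. Outside lung DT against LN DT, correlations of deviations between same-numbered libraries ran from -0.314 to 0.207. For LN PBS and lung PBS they were -0.022, 0.191, -0.03 and -0.001, which cannot settle whether those libraries came from the same mouse. Members with few counts, such as Clspn, Fen1, Gins1 and Chaf1a, are limited by depth.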
